A study of Mus musculus with 6 samples.

Results

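The 10 genes described here are used as markers of blood, osteoclast and endothelial cells and were read here in cultures of chondrocytes. Which cells in the cultures gave their reads was not tested. They were taken by symbol and were not chosen by their values. All 10 were found among the 41388 genes of the count tables. *Ptprc*, *Cd68*, *Adgre1*, *Csf1r*, *Tyrobp* and *Lyz2* mark leukocytes and macrophages, *Acp5* marks osteoclasts, and *Pecam1*, *Kdr* and *Tek* mark endothelium. Cells freed from the cartilage of the femoral heads of male mice aged 21 days were cultured for 2 days without treatment, giving 3 *Postn*-/- and 3 *wt* libraries. The strain is B6/129 in the sample labels and B6129SF2/J in the study's methods. *Postn*-/- mice lack periostin, a matricellular protein, in every cell, through the germline allele *Postn* tm1Jmol, and the study bred both genotypes as littermates. The methods list as many mice per genotype as there are libraries, but no label ties a library to an animal, so p-values measure the spread between these samples.

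Cartilage has no blood vessels, and marrow, bone and synovium lie next to it. Macrophages and osteoclasts arise from the same myeloid precursors. The receptor encoded by *Csf1r* keeps both lineages alive in response to the growth factor encoded by *Csf1*. Endothelial cells depend on VEGF acting through the receptor encoded by *Kdr* and on angiopoietins acting through the receptor encoded by *Tek*. In bulk RNA, fewer cells of a type and less RNA per cell cannot be told apart.

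The start regions of the 3 genes with the highest level per kilobase, *Cd68*, *Lyz2* and *Acp5*, are shown because these genes carried most of the reads of the group and did not follow one another across the libraries. Each sequence is the 250 bases before the RefSeq start site on GRCm38.p6, read 5′ to 3′ on the strand of the gene, which is the minus strand for all 3. *Cd68* is at chr11:69666171-69666420, *Lyz2* at chr10:117282273-117282522, and *Acp5*, at the first of its 3 start sites, at chr9:22135747-22135996. Capitals mark the core letters GAGGAA, read by the myeloid factor PU.1, and TGACTCA, read by AP-1, both searched on both strands together with the E-box CACGTG.
Cd68: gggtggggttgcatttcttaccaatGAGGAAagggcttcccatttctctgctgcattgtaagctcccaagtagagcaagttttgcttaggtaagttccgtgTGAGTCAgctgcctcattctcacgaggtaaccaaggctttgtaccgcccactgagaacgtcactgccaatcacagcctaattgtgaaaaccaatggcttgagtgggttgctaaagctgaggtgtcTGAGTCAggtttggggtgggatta
Lyz2: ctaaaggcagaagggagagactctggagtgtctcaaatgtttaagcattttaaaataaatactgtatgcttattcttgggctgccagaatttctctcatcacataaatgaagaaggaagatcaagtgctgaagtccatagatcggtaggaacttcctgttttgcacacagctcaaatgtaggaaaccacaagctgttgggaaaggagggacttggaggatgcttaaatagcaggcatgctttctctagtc
Acp5: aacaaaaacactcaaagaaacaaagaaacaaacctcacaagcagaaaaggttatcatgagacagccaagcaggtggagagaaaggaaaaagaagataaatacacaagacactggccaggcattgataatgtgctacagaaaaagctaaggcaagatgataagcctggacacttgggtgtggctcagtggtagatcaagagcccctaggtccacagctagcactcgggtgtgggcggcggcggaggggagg
The *Cd68* window held 1 GAGGAA, which began 225 bases before the start, and 2 copies of the AP-1 letters, which began 149 and 24 bases before it. None of these letters occurred in the *Lyz2* window or in the windows of the 3 *Acp5* start sites. Among 32536 windows of the same length, 23.4% held GAGGAA, 4.45% held TGACTCA and 6.04% held CACGTG. A match here is a match of letters.

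Library totals were 20587640 to 26572260 counts, so that 3 counts were worth 0.113 to 0.146 CPM (the count scaled to the library total). Values below are CPM after TMM scaling unless given as RPKM, which is this CPM per kilobase of exon. *Postn* itself was at 4.66, 4.27 and 5.67 CPM in the *Postn*-/- libraries and at 10.1, 10.3 and 6.90 CPM in the *wt* libraries, lower in each *Postn*-/- library than in each *wt* library (log2 fold change −0.91, SE 0.22, adjusted p = 0.717, edgeR quasi-likelihood test). The labelled cell type was borne out by its defining genes: the 15 chondrocyte markers had a median of 426 RPKM, led by *Cnmd* (2601 RPKM), *Comp* (2436 RPKM) and *Col2a1* (2145 RPKM). They took 3.12% to 5.03% of all counts, whereas the 6 leukocyte markers took 0.00188% to 0.00488%.

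All 10 markers had reads, and none differed between the genotypes by the test. Of the 7 that passed the filter on low counts (above 1 CPM in at least 2 libraries), 0 had an adjusted p of 0.05 or less and 0 had an unadjusted p of 0.05 or less in edgeR's test. Over all 14533 genes tested, 0.0138% had an adjusted p of 0.05 or less and 6.3% an unadjusted one. The *Postn*-/- and *wt* values overlapped for each of the 10, against 7.03% of tested genes with every *Postn*-/- library above every *wt* library and 6.57% with every one below. *Adgre1*, *Tyrobp* and *Tek* did not pass the filter, and their fold changes come from a fit of all 34295 genes with a read. Limma's fit with sample weights, run on the 7 with the filter and on the other 3 without it, also called 0. DESeq2's Wald test, run the same way, called 0 of the 8 markers to which it gave an adjusted p, and it gave none to *Csf1r* and *Kdr*.

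**Figure D1:**
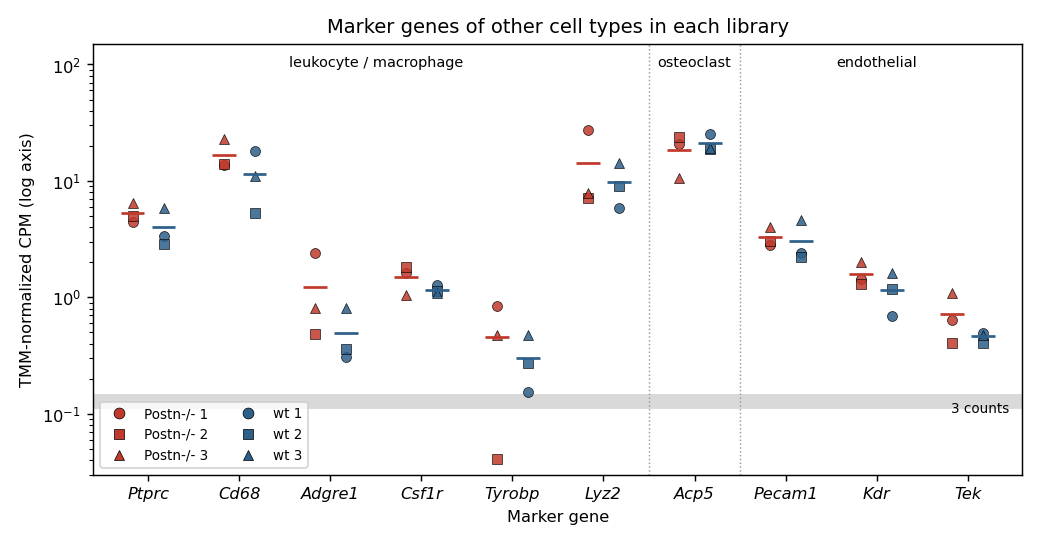
TMM-normalized CPM (log axis) of the 10 marker genes in the 3 *Postn*-/- (red) and 3 *wt* (blue) libraries; each point is a library, horizontal lines are the genotype means, and the grey band is the CPM worth 3 counts. The genotypes overlap for every gene, and *Postn*-/- replicate 1 has the highest point for *Adgre1*, *Tyrobp* and *Lyz2*.

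Per kilobase, 3 of the markers stood well above the other 7. *Acp5* averaged 12.2 RPKM ± 3.20 (SD, n = 6 libraries), *Cd68* 11.2 ± 4.76 and *Lyz2* 9.44 ± 6.43. These 3 overlapped in range: *Acp5* was above *Cd68* in 5 of 6 libraries, and *Cd68* was above *Lyz2* in 3 of 6. They lay above 82.3%, 81.3% and 79.4% of protein-coding genes. The step down to *Tyrobp*, the fourth gene in the order, was the one place where the ranges of neighbours did not overlap: *Tyrobp* averaged 0.669 RPKM ± 0.509 and *Lyz2* was above it in 6 of 6 libraries.

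The lower 7 markers lay close together. *Pecam1* followed at 0.512 RPKM ± 0.152, then *Csf1r* at 0.273 ± 0.0648, *Adgre1* at 0.267 ± 0.243, *Ptprc* at 0.263 ± 0.0778, *Kdr* at 0.189 ± 0.0606 and *Tek* at 0.125 ± 0.0559 (SD, n = 6 libraries). Each overlapped in range with the next. *Pecam1* was nevertheless above *Csf1r*, and *Ptprc* above *Kdr*, in 6 of 6 libraries, while *Adgre1* was above *Ptprc* in 1 of 6. *Tek* lay above 26.4% and *Tyrobp* above 48.6% of protein-coding genes.

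These levels were set beside marker genes of other blood lineages. The 43 lymphocyte, neutrophil and erythroid markers had a median of 0.117 RPKM and reached 1.07 RPKM at most, for the T cell kinase gene *Lck*. None of the 43 was above *Acp5*, *Cd68* or *Lyz2*. By contrast, 11 of the 43 were above *Ptprc*, 11 above *Adgre1*, 10 above *Csf1r*, 5 above *Pecam1*, 2 above *Tyrobp*, 16 above *Kdr* and 21 above *Tek*. The levels of these 7 were thus inside the range of the 43. Haemoglobin reads were nearly missing, with *Hba-a2* at 0 counts in 6 of 6 libraries and *Hbb-bs* at 0 to 0.090 CPM.

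**Figure D2:**
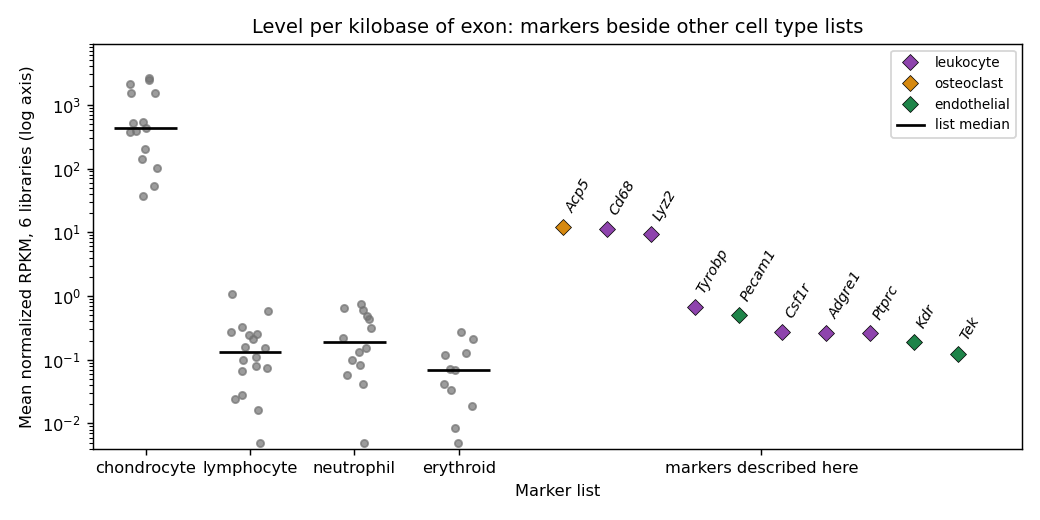
Mean normalized RPKM over the 6 libraries (log axis) of the 10 markers (diamonds, coloured by class) beside the genes of 4 marker lists (grey points; black line, list median); genes under 0.005 RPKM are drawn at 0.005. *Acp5*, *Cd68* and *Lyz2* lie near 10 RPKM, and the other 7 lie within the range of the lymphocyte and neutrophil markers, with *Tyrobp* and *Pecam1* near its top.

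*Cd68* encodes a lysosomal glycoprotein of macrophages (ENSMUSG00000018774, chr11:69664213-69666153, minus strand). It was at 13.7, 14.0 and 22.9 CPM in the *Postn*-/- libraries and at 17.9, 5.29 and 11.0 CPM in the *wt* libraries. *Postn*-/- replicate 3 was the highest and *wt* replicate 2 the lowest, and the genotypes overlapped (log2 fold change 0.56, SE 0.41, adjusted p = 0.747, edgeR).

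*Lyz2* encodes the lysozyme of macrophages and neutrophils (ENSMUSG00000069516, chr10:117277331-117282321, minus strand). It was at 27.5, 7.20 and 7.86 CPM in the *Postn*-/- libraries and at 5.81, 9.14 and 14.2 CPM in the *wt* libraries. *Postn*-/- replicate 1 alone stood out, and the other *Postn*-/- libraries were below *wt* replicates 2 and 3. The log2 fold change of 0.55 (SE 0.55, adjusted p = 0.810, edgeR) became −0.36 without that library. Of the 50-base words of the *Lyz2* transcripts, 15.4% also occurred in *Lyz1*, a neighbouring lysozyme gene that had 1 to 9 counts per library, so reads from these words could not be assigned to either gene.

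*Acp5* encodes tartrate-resistant acid phosphatase, the enzyme stained to find osteoclasts and also made by some macrophages (ENSMUSG00000001348, chr9:22126727-22135711, minus strand). It was at 20.6, 24.0 and 10.6 CPM in the *Postn*-/- libraries and at 25.2, 18.7 and 19.4 CPM in the *wt* libraries. The lowest value was that of *Postn*-/- replicate 3, the library with the highest *Cd68*. Of its exon bases in GENCODE M21, 6.75% overlap 6530413G14Rik, a gene on the opposite strand outside the counted set. The log2 fold change was −0.20 (SE 0.28, adjusted p = 0.865, edgeR), and it was 0.075 without *Postn*-/- replicate 3.

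*Ptprc* encodes CD45, the phosphatase carried by nucleated blood cells (ENSMUSG00000026395, chr1:138062861-138175708, minus strand). It was at 4.46, 5.0 and 6.43 CPM in the *Postn*-/- libraries, from 111, 123 and 135 reads, and at 3.34, 2.90 and 5.85 CPM in the *wt* libraries, from 87, 64 and 122 reads. Its exons in the tables add to 17763 bases, the longest of the 10, which lowers its RPKM. Its fold change on the log2 scale was 0.40 (SE 0.30, adjusted p = 0.758, edgeR).

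*Adgre1* encodes F4/80, the surface receptor used to recognise mouse macrophages (ENSMUSG00000004730, chr17:57358691-57483527, plus strand). It had 60, 12 and 17 reads in the *Postn*-/- libraries, or 2.41, 0.49 and 0.81 CPM, and 8, 8 and 17 reads in the *wt* libraries, or 0.31, 0.36 and 0.81 CPM. The exact Poisson 95% interval of *Postn*-/- replicate 1 was 1.84 to 3.10 CPM, and that of the next library, *wt* replicate 3, was 0.475 to 1.30 CPM. These intervals cover counting error alone. In the fit without a filter the log2 fold change was 1.33 (SE 0.51, unadjusted p = 0.0148, adjusted p = 0.833, edgeR), and it was 0.37 without *Postn*-/- replicate 1. Without *Postn*-/- replicate 2 it was 1.72 with an adjusted p of 0.0128 in edgeR's test, and over all alternatives run the adjusted p was 0.0128 to 0.998.

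*Tyrobp* encodes DAP12, the signalling adaptor of activating myeloid receptors (ENSMUSG00000030579, chr7:30413760-30417585, plus strand). It had 21, 1 and 10 reads in the *Postn*-/- libraries and 4, 6 and 10 reads in the *wt* libraries. Its highest and its lowest library were both *Postn*-/-, at 0.844 CPM in replicate 1 and 0.0407 CPM in replicate 2, with a Poisson 95% interval of 0.00103 to 0.227 CPM for the latter. The log2 fold change was 0.60 (SE 0.65, adjusted p = 0.835, edgeR, no filter), and −0.27 without *Postn*-/- replicate 1.

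*Csf1r* encodes the receptor of macrophage colony-stimulating factor. It had 40, 45 and 22 reads in the *Postn*-/- libraries, or 1.61, 1.83 and 1.05 CPM, and 33, 25 and 23 reads in the *wt* libraries, or 1.27, 1.13 and 1.10 CPM. It varied least of the 10 over the 6 libraries, with a coefficient of variation of 23.8% against 17.9% from counting alone. The log2 fold change was 0.36 (SE 0.29, adjusted p = 0.765, edgeR). Of its exon bases in GENCODE M21, 15.1% overlap *Hmgxb3* on the opposite strand, a gene in the counted set. The paper does not state that strand was kept. It counted unambiguous reads alone, so without strand, reads from bases that both genes share would be left out of the counts of both.

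The 6 leukocyte markers did not rise and fall as 1 group over the libraries. Summed, they were at 50.5, 28.6 and 39.5 CPM in the *Postn*-/- libraries and at 28.8, 19.1 and 33.4 CPM in the *wt* libraries, a log2 ratio of means of 0.54 with overlapping genotypes. The 6 were highest in 3 different libraries: *Adgre1*, *Tyrobp* and *Lyz2* in *Postn*-/- replicate 1, *Ptprc* and *Cd68* in *Postn*-/- replicate 3, and *Csf1r* in *Postn*-/- replicate 2. *Adgre1* varied most, with a coefficient of variation of 91.0% against 22.2% from counting alone. For *Tyrobp* these were 76.1% and 34.0%, and for *Lyz2* 68.1% and 5.99%.

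*Postn*-/- replicate 1 also held the highest value of most other macrophage and monocyte genes. Of the 25 such genes with at least 30 reads, 16 (64%) were highest in that library, and so were 13 of 20 (65%) once the markers described here were left out. Among 9634 genes of 30 to 500 reads, 12.3% were highest there. The median log2 ratio of the 25 genes to the mean of the other 5 libraries was 0.73 in *Postn*-/- replicate 1, and that of the 9634 genes was −0.08. The 15 chondrocyte markers were also high there, with a median log2 ratio of 0.35 and 5 of 15 (33.3%) highest in that library, and the part of this in the macrophage values was not tested.

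The shift was uneven over the list. Compared with the mean of the other 5 libraries, and with no pseudocount, *Postn*-/- replicate 1 was 4.59-fold higher for *Ms4a7*, 4.33-fold for *Adgre1*, 4.04-fold for the complement gene *C1qb*, 3.11-fold for *Lyz2*, 3.09-fold for the Fc receptor chain gene *Fcer1g*, 2.98-fold for the scavenger receptor gene *Msr1*, 2.97-fold for *Tyrobp* and 2.94-fold for the cathepsin gene *Ctss*. With a pseudocount of 0.1 CPM the log2 ratios of *Adgre1*, *Ms4a7* and *C1qb* were 1.94, 1.72 and 1.71, so that *Adgre1* came first. The ratio was 1.26 for *Csf1r*, 0.964 for *Cd68*, 0.859 for *Cx3cr1*, 0.772 for *Ccr2*, 0.703 for *Trem2* and 0.321 for *Cd163*. *Trem2* and *Cd163* were highest in *Postn*-/- replicate 2. These counts were made after the values were seen and describe 1 library, not a genotype.

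**Figure D3:**
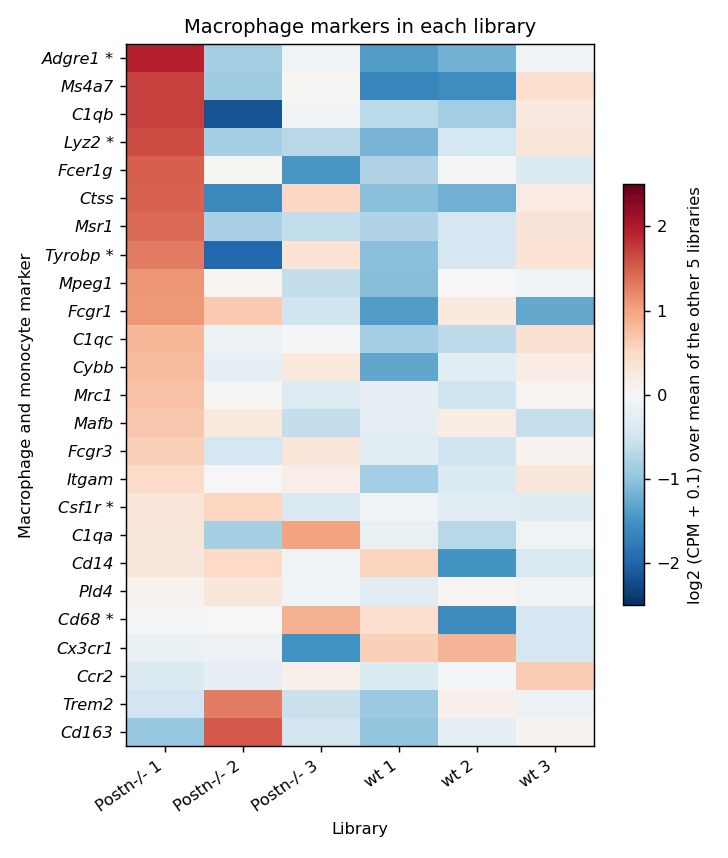
Macrophage and monocyte markers with at least 30 reads (rows; asterisks mark the genes described here) in each library (columns), coloured by the log2 of CPM + 0.1 over the same for the mean of the other 5 libraries. The upper 16 genes are highest in *Postn*-/- replicate 1. *Csf1r*, *C1qa*, *Cd14* and *Pld4* are above 0 there but highest elsewhere, and *Cd68*, *Cx3cr1*, *Ccr2*, *Trem2* and *Cd163* are below 0 there.

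Over the genotypes, 12 genes of the macrophage list of 30 were tested, and 0 had an unadjusted p of 0.05 or less in edgeR's test. That count was 2 without *wt* replicate 1, 1 without *Postn*-/- replicate 2, and 2 with voomWithQualityWeights and 2 surrogate variables. Over all genes tested in these fits it was 787 of 14456, 1104 of 14277 and 1997 of 14533, in that order. Over all 30, without the filter, 1 had an unadjusted p of 0.05 or less in edgeR's test, as did 1797 of all 34295 genes. The fitted values of the 30 were above 0 for 26, with a median log2 fold change of 0.54, beside 0.0189 for all genes with a read. For the 12 that passed the filter they were above 0 for 11, with a median of 0.45. *C1qa* passed through *Postn*-/- libraries alone, which favours a value above 0. Without *Postn*-/- replicate 1 they were above 0 for 9 of 11, with a median of 0.31. The smallest unadjusted p values were those of *Cybb* (0.159), a subunit of the phagocyte oxidase, and *Ctss* (0.195). Of the pan-leukocyte list, 13 of 20 genes were tested, 0 were called and the median was −0.09 with 6 of 13 above 0. The sign of this median was not stable: it was 0.22 over all 20 genes without the filter, with 12 above 0, 0.17 and 0.07 with voomWithQualityWeights without and with 2 surrogate variables, 0.11 without *Postn*-/- replicate 1, 0.03 without *Postn*-/- replicate 3, 0.11 without *wt* replicate 1 and 0.21 without *wt* replicate 2. Among the 13, 1 gene had an unadjusted p of 0.05 or less, beside 6.3% of all tested genes. It was the leukocyte tetraspanin gene *Cd53* (log2 fold change 0.98, unadjusted p = 0.0214, adjusted p = 0.717, edgeR). Without the filter, *Cd48* had one as well (0.0492, adjusted p = 0.833, edgeR), which made 2 of 20, beside 1797 of all 34295 genes. The highest of that list, *Arhgdib* (39.5 RPKM) and *Laptm5* (4.59 RPKM), had log2 fold changes of −0.24 and −0.32. *Spi1*, which encodes PU.1 itself, was at 0.115 to 0.620 CPM.

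Markers of other blood lineages were low, and few passed the filter. Of 18 lymphocyte genes 4 were tested, of 14 neutrophil genes 1 (*Mmp8*), of 11 megakaryocyte and mast cell genes 2, and of 11 erythroid genes none. Of these 7 tested genes, 0 had an unadjusted p of 0.05 or less in edgeR's test. Without the filter, *Klrb1c* and *Gp1bb* had one (log2 fold changes 1.21 and −1.23, adjusted p = 0.833 for both, edgeR), as did 1797 of all 34295 genes. The lymphocyte genes summed to 9.16, 11.1 and 11.7 CPM in the *Postn*-/- libraries and to 8.0, 8.05 and 9.82 CPM in the *wt* libraries.

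The osteoclast list did not share one level. *Ctsk*, the collagen-degrading cathepsin of osteoclasts, was at 250 RPKM, and the lysosomal chloride transporter gene *Clcn7*, the proton pump subunit gene *Tcirg1* and the transcription factor gene *Nfatc1* were at 22.9, 7.70 and 5.35 RPKM. Other genes of the list were far lower: the calcitonin receptor gene *Calcr* was at 0.172 RPKM, the fusion genes *Dcstamp* and *Ocstamp* at 0.421 and 0.105, the proton pump subunit gene *Atp6v0d2* at 0.449, the receptor genes *Tnfrsf11a*, *Oscar* and *Itgb3* at 0.267, 0.400 and 0.229, and *Mmp9*, a protease also made by neutrophils and macrophages, at 0.037. *Acp5* at 12.2 RPKM lay within the range of the former. *Ostm1* and *Car2*, also on the list, lay between the former and the latter, at 3.09 and 0.951 RPKM. Of 15 genes 10 were tested, 0 had an unadjusted p of 0.05 or less in edgeR's test, and the median log2 fold change was 0.12. Leaving out 1 library at a time gave medians of 0.058 (without *Postn*-/- replicate 1) to 0.15, with 0.078 without *wt* replicate 2. Without *Postn*-/- replicate 2, 1 gene of the list had an unadjusted p of 0.05 or less in edgeR's test, as did 1104 of all 14277 genes tested. The log2 fold changes of *Ctsk* (0.14, SE 0.16) and *Tcirg1* (−0.01, SE 0.12) had adjusted p values of 0.827 and 0.984 in edgeR's test.

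*Pecam1* encodes CD31, the adhesion protein of endothelial junctions, also carried by platelets and leukocytes (ENSMUSG00000020717, chr11:106654217-106750628, minus strand). It was at 2.81, 3.05 and 4.05 CPM in the *Postn*-/- libraries and at 2.38, 2.22 and 4.60 CPM in the *wt* libraries. Replicate 3 of each genotype was the highest of its genotype. The log2 fold change was 0.11 (SE 0.33, adjusted p = 0.941, edgeR) and turned to between −0.074 and −0.045 without *Postn*-/- replicate 3, *wt* replicate 1 or *wt* replicate 2.

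*Kdr* encodes VEGF receptor 2 (ENSMUSG00000062960, chr5:75932827-75978458, minus strand). It had 36, 32 and 42 reads in the *Postn*-/- libraries, or 1.45, 1.30 and 2.00 CPM, and 18, 26 and 34 reads in the *wt* libraries, or 0.69, 1.18 and 1.63 CPM. The *wt* value of replicate 3 lay above 2 of the *Postn*-/- values (log2 fold change 0.45, SE 0.36, adjusted p = 0.765, edgeR).

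*Tek* encodes the angiopoietin receptor Tie2 (ENSMUSG00000006386, chr4:94739289-94874976, plus strand). It had 16, 10 and 23 reads in the *Postn*-/- libraries, or 0.64, 0.41 and 1.10 CPM, and 13, 9 and 10 reads in the *wt* libraries, or 0.50, 0.41 and 0.48 CPM. *Postn*-/- replicate 3 was the highest and the other 5 libraries lay close together (log2 fold change 0.58, SE 0.44, adjusted p = 0.833, edgeR, no filter).

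The 3 endothelial markers summed to 4.90, 4.76 and 7.15 CPM in the *Postn*-/- libraries and to 3.58, 3.8 and 6.71 CPM in the *wt* libraries, with a log2 ratio of means of 0.26 and overlapping genotypes. That ratio was 0.04 without *Postn*-/- replicate 3 and 0.60 without *wt* replicate 3. Low genes at large were also unequal over the libraries: the 9634 genes of 30 to 500 reads summed to 9051, 10026 and 9926 CPM in the *Postn*-/- libraries and to 8121, 8562 and 9674 CPM in the *wt* libraries. *Ptprc*, *Pecam1* and *Kdr* had their 2 highest values in *Postn*-/- replicate 3 and *wt* replicate 3, and the part of this library difference in their values was not tested.

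**Figure D4:**
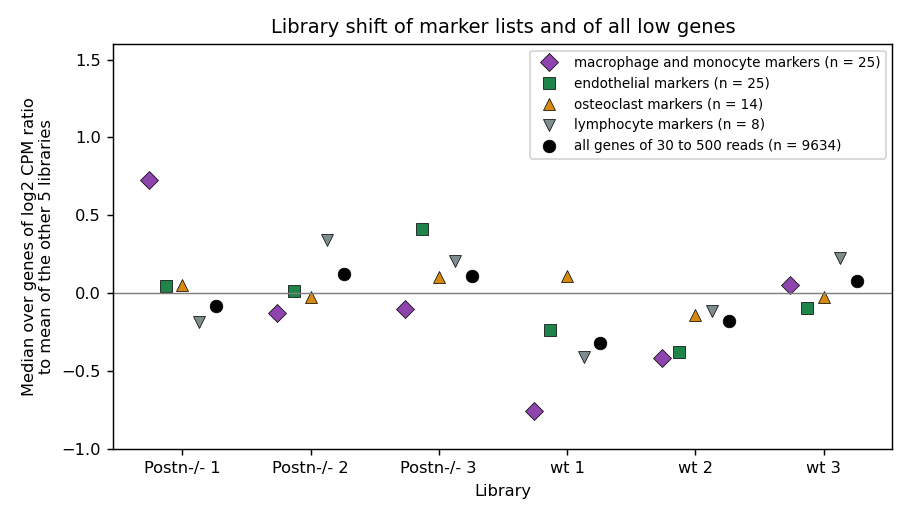
Median over genes of the log2 CPM ratio of each library to the mean of the other 5, for 4 marker lists and for all genes of 30 to 500 reads (black circles; the number of genes is in the legend). The macrophage list is at 0.73 in *Postn*-/- replicate 1 and at −0.76 in *wt* replicate 1, the endothelial list is highest in *Postn*-/- replicate 3, and the low genes range from −0.32 to 0.13.

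Of the wider endothelial list of 30 genes, 16 were tested and 0 had an adjusted p of 0.05 or less in edgeR's test. Over all 30, without the filter, the fitted values were above 0 for 21, with a median log2 fold change of 0.21. For the 16 they were above 0 for 14, with a median of 0.26, but *Emcn* and *Esam* passed the filter through *Postn*-/- libraries alone, which favours a value above 0. Without *Postn*-/- replicate 3 they were above 0 for 9 of 14, with a median of 0.17, and without *wt* replicate 3 for 14 of 16, with a median of 0.43. An unadjusted p of 0.05 or less was found for 3 of the 16, beside 6.3% of all tested genes. That count was 1 of 14 without *Postn*-/- replicate 3 and 1 of 16 without *wt* replicate 2. Over all genes tested in these fits it was 425 of 14259 and 1257 of 14427. Of the 16, 4 had every *Postn*-/- library above every *wt* library, beside 7.03% of all tested genes. *Eng*, the TGF-β co-receptor gene that mesenchymal cells also use, was at 45.7, 45.7 and 33.0 CPM against 30.5, 27.2 and 27.1 CPM (log2 fold change 0.55, SE 0.15, unadjusted p = 0.0065, adjusted p = 0.717, edgeR). *Ramp2*, a partner of the calcitonin receptor-like receptor, and *Ptprb*, the endothelial phosphatase that acts on Tie2, had log2 fold changes of 0.72 (SE 0.26) and 0.78 (SE 0.34), both with an adjusted p of 0.717 in edgeR's test. The defining genes were uneven: *Cdh5* was at 0 to 0.431 CPM and *Cldn5* at 0 to 0.231 CPM, while *Vwf* was at 3.08 to 4.19 CPM, *Egfl7* at 2.40 to 3.38 CPM and *Flt1* at 2.13 to 3.21 CPM. Per kilobase the difference was smaller for *Vwf* and *Flt1*, which have long exons. *Cdh5* and *Cldn5* averaged 0.071 and 0.056 RPKM, *Vwf* and *Flt1* 0.236 each, and *Egfl7* 0.834. Of the 30 genes, 21 had more than 3 counts in all 6 libraries. *Eng* and *Ramp2*, the highest of the list at 9.01 and 2.23 RPKM, were well above *Pecam1*. Of 10 mural cell genes 9 were tested and 0 were called. *Abcc9* and *Rgs5* had unadjusted p values of 0.0269 and 0.0347 in edgeR's test, beside 6.3% of all tested genes at 0.05 or less. Of the 9, 0 had one of 0.05 or less without *Postn*-/- replicate 3, without *wt* replicate 1 or with voomWithQualityWeights. Over all genes tested in these fits, 425 of 14259, 787 of 14456 and 1337 of 14533 had one, in that order.

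Per kilobase, most ligand genes of the receptors *Csf1r*, *Tek* and *Kdr* lay above the receptor gene, and *Vegfc* lay below *Kdr*. *Tnfsf11*, at 0.238 RPKM, lay below its receptor gene *Tnfrsf11a*, at 0.267 RPKM. *Csf1* was at 78.9 RPKM and *Il34*, the other ligand of the receptor, at 2.53 RPKM, whereas *Csf1r* was at 0.273 RPKM. *Angpt4* was at 51.7, *Angpt1* at 1.97 and *Angpt2* at 0.562 RPKM, beside 0.125 for *Tek*. *Vegfa* was at 1.56 and *Vegfc* at 0.115 RPKM, beside 0.189 for *Kdr*. The co-receptor genes *Nrp1* and *Nrp2* were at 33.5 and 7.24 RPKM, and the related growth factor genes *Vegfb*, *Vegfd* and *Pgf* at 3.04, 2.05 and 2.00 RPKM.

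Of the 20 ligand and partner genes 16 were tested, 10 with fitted values above 0 and 6 below, with a median log2 fold change of 0.11. The median was 0.034 and 0.018 without *Postn*-/- replicates 1 and 3, and 0.048 and 0.19 without *wt* replicates 2 and 3. None was called, and 2 of the 16 had an unadjusted p of 0.05 or less in edgeR's test, beside 6.3% of all tested genes. The same 2 had every *Postn*-/- library above every *wt* library, beside 7.03% of all tested genes. *Csf1* was at 452, 590 and 425 CPM in the *Postn*-/- libraries and at 295, 353 and 376 CPM in the *wt* libraries, so that the genotypes did not overlap (log2 fold change 0.52, SE 0.16, unadjusted p = 0.0121, adjusted p = 0.717, edgeR). *Angpt2*, which modulates Tie2 signalling, was at 1.85, 2.48 and 4.34 CPM against 1.31, 1.09 and 1.39 CPM and did not overlap either (log2 fold change 1.19, SE 0.35, unadjusted p = 0.0104, adjusted p = 0.717, edgeR). Neither passed the adjustment over all 14533 genes.

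The other partners overlapped between the genotypes. *Tnfrsf11b*, the decoy receptor that blocks osteoclast formation, was at 876, 745 and 832 CPM in the *Postn*-/- libraries and at 1928, 292 and 724 CPM in the *wt* libraries, which thus held both the highest and the lowest value. Its target *Tnfsf11*, the osteoclast-inducing ligand RANKL, was at 0.095 to 1.54 CPM and was not tested. *Angpt4* was at 104, 113 and 77.1 CPM against 229, 87.5 and 113 CPM (log2 fold change −0.55, SE 0.34, adjusted p = 0.727, edgeR), and *Angpt1* had a log2 fold change of −0.39 (SE 0.23). Of the partners of DAP12 and its family, *Trem2* was at 0.884 to 3.29 CPM, *Clec5a* at 0.231 to 0.643 CPM, and *Hcst*, a related adaptor gene, at 0 to 0.325 CPM. The receptor genes *Flt1* and *Tie1* and the phosphatase gene *Ptprj* were at 0.236, 0.254 and 0.292 RPKM, with log2 fold changes of 0.15, 0.19 and 0.41. The log2 fold changes of *Il34*, *Vegfa*, *Vegfb*, *Vegfd*, *Pgf*, *Nrp1* and *Nrp2* lay between −0.26 and 0.28.

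**Figure D5:**
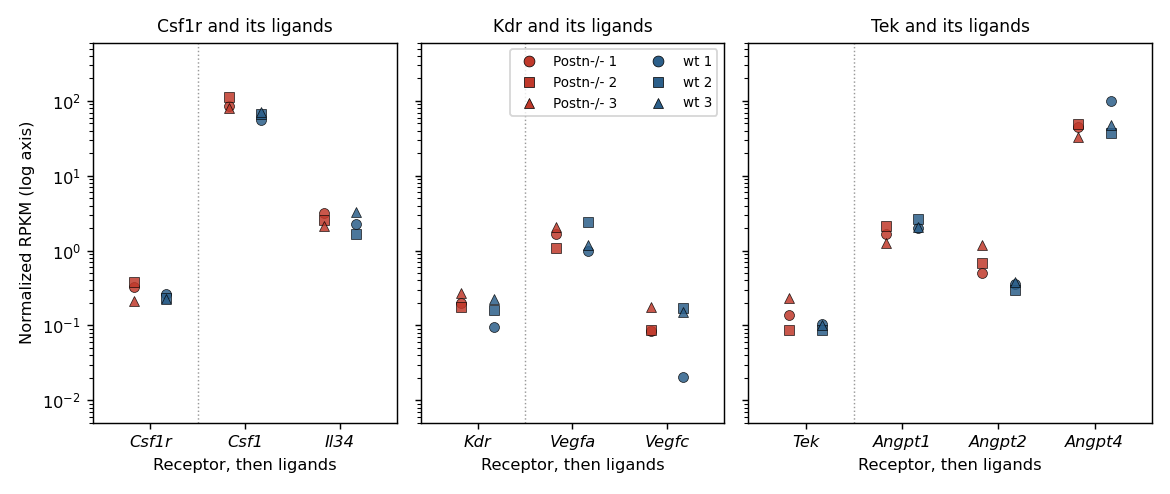
Normalized RPKM (log axis) of the receptor genes *Csf1r*, *Kdr* and *Tek* and of genes for their ligands in the 3 *Postn*-/- (red) and 3 *wt* (blue) libraries; each point is a library. The receptors lie below 1 RPKM and *Csf1* and *Angpt4* lie well above them, and the genotypes do not overlap for *Csf1* and *Angpt2*.

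The genes most like each class over the 6 libraries were sought among all tested genes outside it, by Pearson's r with the mean of gene-centred log2 CPM of the class. For the leukocyte class, whose score was 0.79, −0.30 and 0.24 in the *Postn*-/- libraries and −0.41, −0.52 and 0.19 in the *wt* libraries, these were *2510002D24Rik*, *Patj*, *Tspan3*, *Dnajb6*, *Mon1b*, *Chkb*, *B3glct*, *Ip6k3*, *Slc27a3* and *Slc4a3* (r = 0.967 to 0.981). For the endothelial class they were *Naalad2*, *Cttnbp2*, *Gm11823*, *Nck1*, *Gm11725*, *Cdkl3*, *Aen*, *Med28*, *Zcchc4* and *Zswim5* (r = 0.966 to 0.992). None of the 20 was on any of the marker lists, but the lists held only 191 of the 41388 genes of the count tables. A count of 0 among 20 therefore does not set the list genes apart from other genes. With 6 points that share their library scaling, and 14533 genes searched, these r values are a description.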

How the data were processed

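RNA-seq of 6 libraries was analysed from the deposited gene tables. The authors prepared double-stranded cDNA from 10 ng of RNA and sequenced 50 bases from one end. They aligned the reads by STAR 2.0.4b and counted uniquely aligned, unambiguous reads with featureCounts 1.4.5 (versions also in the submitters' processing notes). The deposited counts are raw; the deposited CPM is the count scaled to the library total, and the deposited RPKM is that CPM per kilobase of exon. The processing notes name mm9, but 99.76% of 40340 matched identifiers lay at their GRCm38 position in GENCODE M21, which gave the symbols. In R 4.3.3, edgeR 4.0.16 compared the genotypes without covariates (TMM, genes above 1 CPM in at least 2 libraries, 355 rRNA genes left out, quasi-likelihood test, Benjamini-Hochberg adjustment over 14533 genes, called at 0.05). The SE was the size of the log2 fold change divided by the root of the F statistic. DESeq2 1.42.0, limma 3.58.1 with sva 3.50.0, other normalizations and filters, a replicate block and leaving out each library were alternatives. Low reads were compared with exact Poisson 95% intervals, and log2 library ratios used a pseudocount of 0.1 CPM, while fold ratios of a library used none. PCR copies were not marked, so intervals cover counting error. No library pair was a repeat: the chi-square per degree of freedom was 27.1 or more. The markers, the 11 lists (191 genes found) and the tests were chosen with earlier results of these data known. Genes named were the 10 markers, *Postn*, all ligand and partner genes, in each list the genes with the smallest p or highest RPKM, and the 10 genes most like each class; other genes named (among them *Spi1*, *Cdh5*, *Cldn5*, *Calcr*, *Ocstamp*, *Dcstamp*, *Mmp9*, *Oscar*, *Itgb3*, *Tnfrsf11a*, *Cd48*, *Klrb1c*, *Gp1bb*, *Hba-a2*, *Hbb-bs*, *Ms4a7*, *C1qb*, *Fcer1g*, *Msr1*, *Trem2* and *Cd163*) were chosen after their values were seen. RefSeq start regions were found for 6 of the 10 markers.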

Additional observations from a re-analysis of the deposited data

How the results depend on the processing

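Over the alternatives, 119 of 127 fold changes of the 10 markers kept their direction and 8 turned. The count of markers called was 0 under every alternative of the filtered fits, as was the count of genes called in each marker list; in the fits without a filter, *Adgre1* passed once, as given above. *Pecam1* was −0.036 with voomWithQualityWeights, and −0.062, −0.045 and −0.074 without *Postn*-/- replicate 3, *wt* replicate 1 and *wt* replicate 2, so that leaving out 1 library gave −0.074 to 0.52. *Tyrobp* was −0.10 with voomWithQualityWeights and no filter, and −0.27 (without *Postn*-/- replicate 1) to 1.15 when a library was left out. *Lyz2* ranged likewise from −0.36 to 0.93, *Acp5* from −0.44 to 0.075 (without *Postn*-/- replicate 3), *Adgre1* from 0.37 to 1.83, *Cd68* from 0.22 to 1.05, *Ptprc* from 0.21 to 0.76, *Csf1r* from 0.19 to 0.55, *Kdr* from 0.17 to 0.76 and *Tek* from 0.16 to 0.87. With all libraries, *Lyz2* was 0.023 with voomWithQualityWeights and 0.31 with the replicate block, against 0.55 in the main fit. The sum ratio without 1 library was 0.33 to 0.73 for the leukocyte and 0.04 to 0.60 for the endothelial markers. The cause of these changes was not tested. Leaving out a library leaves 3 against 2. The replicate numbers were shared between genotypes. For each tested gene, the mean log2 CPM of the genotype was subtracted from each library, and these deviations were correlated between genotypes. Same-numbered libraries had r of 0.0824, 0.155 and 0.143, with 1 value under 0.1, and the other pairs −0.130 to 0.0143. Each sample thus correlated best with its own number. These r values do not describe the likeness of whole libraries. Under the replicate block 0 markers were called and 1 gene in all had an adjusted p of 0.05 or less, against 2 without it. Over all genes, that count was 0 with a filter of 1 CPM in all 6 libraries, 9 without a filter, 11 with DESeq2, and 1 and 4 with limma without and with 2 surrogate variables. *Adgre1*, *Tyrobp* and *Tek* rest on 1 to 60 reads per library. The list medians by library left out were added after seeing the data.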

Other observations

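The macrophage genes were low in *wt* replicates 1 and 2. The median log2 ratio of the 25 macrophage and monocyte genes with at least 30 reads to the mean of the other 5 libraries was −0.76 in *wt* replicate 1 and −0.41 in *wt* replicate 2, but 0.05 in *wt* replicate 3, where it lay above *Postn*-/- replicates 2 (−0.13) and 3 (−0.10). Other lists were low in *wt* replicate 1 too: the median was −0.92 for 8 neutrophil genes, −0.74 for the 15 chondrocyte markers, −0.64 for the 20 pan-leukocyte genes, −0.55 for 10 mural cell genes and −0.32 for the 9634 genes of 30 to 500 reads. It was 0.11 for 14 osteoclast genes, their highest library, and 0.04 for 7 megakaryocyte and mast cell genes. In *wt* replicate 2 it was −0.18 for the 9634 genes and 0.12 for the chondrocyte markers. In *wt* replicate 1, *Ms4a7* and *Fcgr1* had 1 read each, while *Cd68* had 466 reads and *Cd14*, the lipopolysaccharide co-receptor gene, had 248. *Clec4d*, outside the 25 genes with 23 reads in all, had 0 there. *Ms4a7* also had 1 read in *wt* replicate 2, and *Fcgr1* also had 1 in *wt* replicate 3. In *wt* replicate 2, *Cd68* had 117 reads and *Cd14* had 60. *Cd68* and *Cd14* thus both had their lowest *wt* value in replicate 2 and their highest in replicate 1, which was not the order of *Lyz2* (151 reads in *wt* replicate 1 and 202 in *wt* replicate 2). These genes were chosen after their values were seen.

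The chondrocyte markers themselves moved between libraries. *Col2a1*, the main cartilage collagen gene, was at 15767, 13696 and 18081 CPM in the *Postn*-/- libraries and at 8271, 11867 and 9567 CPM in the *wt* libraries (log2 fold change 0.68, SE 0.21, adjusted p = 0.717, edgeR quasi-likelihood test). Of the 15 chondrocyte markers 0 were called and 4 had an unadjusted p of 0.05 or less in edgeR's test (6.3% of all tested genes did), each with a fold change above 0. The count of 4 was 2 without *wt* replicate 3, and 5 without *Postn*-/- replicate 2 or without *wt* replicate 2. Over all genes tested in these fits it was 878 of 14309, 1104 of 14277 and 1257 of 14427, in that order. Over the 15, the fitted values were above 0 for 10 and below 0 for 5, with a median of 0.23 that was 0.10 without *Postn*-/- replicate 1, 0.03 without *wt* replicate 1 and 0.44 without *wt* replicate 2. *Chad*, *Col2a1* and *Col9a3* had every *Postn*-/- library above every *wt* library, and *Cnmd*, the gene of chondromodulin, had every one below (log2 fold change −0.29), beside 7.03% and 6.57% of all tested genes.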
